A study of Mus musculus with 21 samples.

Results

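Ciliated airway cells were taken as the cells with a UMI (unique molecular identifier, 1 captured RNA molecule) of at least 4 of 8 genes, Sec14l3, Tmem212, Ccdc153, Dynlrb2, Foxj1, Sntn, Dnah5 and Spef2, and no UMI of Ptprc, Col1a2 or Pecam1, which mark leukocytes, fibroblasts and endothelium. This rule found 1646 of the 45034 cells of the unchallenged lung and lung metastasis libraries, 1348 in unchallenged lung and 298 in metastasis. The whole series held 100359 cells in 16 libraries, each cell counted once. Because measured levels chose these cells, the levels of the 8 genes and every contrast between these cells and others are descriptions without a test.

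The study transplanted fragments of the MT-ret mouse melanoma under the skin of mT/mG mice aged 8 to 10 weeks, of either sex, and resected the primary tumor before lung metastases grew. The mT/mG hosts carry a membrane tdTomato cassette that all tissues express, and no Cre was present, so that host cells stayed red while malignant melanoma (MM) cells were unlabeled. The tumor microenvironment (TME) was sorted as living tdTomato+ cells with or without depletion of CD45+ cells, and which gate a library had was not given in the sources used here. Unchallenged lung is normal lung tissue, and 4 such libraries and 4 of the lung metastasis TME were used. Of the latter, 1 is labeled replicates 1-3 and joins 196 and 589 cells named for separate mice, with none named replicate 1. Cell names in the deposit give a mouse and a sequencing run, with replicates 5 and 6 of both tissues in the same run and the others in earlier ones. The mouse is not certain for metastasis replicates 5 and 6, whose cells are deposited again under other mouse names, those of replicate 6 also as a library of MM cells. Suspensions were cryopreserved before 10x 3′ libraries were made. Metastasis samples held some lung beside the tumor, and how near the airways lay to a tumor was not given in the sources used here.

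Ciliated cells line the conducting airways and carry motile cilia whose beat moves mucus out of the lung. Each motile cilium is built on an axoneme of microtubule doublets around a central pair, driven by outer and inner dynein arms, coupled by nexin links and radial spokes, and supplied by intraflagellar transport. FOXJ1 and the RFX factors switch on the genes of this program, and multiciliated cells no longer divide once their cilia have formed.

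RFX factors bind the X-box. The letters GTTGCC, a conserved part of it, sought on both strands in RefSeq promoters (GRCm38.p6, 250 bases before to 50 after each start), lay in 4 of the 7 genes of the rule that had a promoter in the table. In the 7 lists of motile cilia genes used below, 39 of the 90 genes with a promoter held them (43.3%), against 14.1% of all 27025 genes. The share per list ran from 18.2% of the outer dynein arm genes to 53.3% of the tubulin and tektin genes. The FOXJ1 core GTAAACA stood in 1 of the 7 genes of the rule (Sntn, 236 bases before the start), in 1 of the 90 (1.11%) and in 4.05% of all genes. A match is a run of letters and not a measured binding site. The 3 windows printed here are from genes of the rule whose match lies before the start, with the match in capitals, all on the + strand.
Ccdc153, chr9:44240513-44240542, match 152 bases before the start: ctgagttttccaGTTGCCtggacaacgtgc
Dynlrb2, chr8:116504952-116504981, match 51 bases before the start: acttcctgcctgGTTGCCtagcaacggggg
Sntn, chr14:13670798-13670827, match 66 bases before the start: tgtcattattcaGTTGCCatggaatgaatg

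The cells were spread unevenly over the libraries. Unchallenged lung replicates 1, 4, 5 and 6 held 16, 2, 304 and 1026 of them, and lung metastasis TME replicates 1-3, 4, 5 and 6 held 5, 0, 252 and 41. As a share of the library this is 1.21%, 0.0490%, 5.06% and 3.95% in unchallenged lung and 0.637%, 0%, 4.88% and 3.96% in metastasis. The 0 of 661 cells in metastasis replicate 4 allows a share of up to 0.454%, by counting error alone. Replicates 5 and 6 of either tissue, the libraries of the last run, thus held larger shares than the others, and the tissues overlapped. For unchallenged lung replicate 6 this rests on the threshold. Of its 25966 cells 305 had 7 or 8 of the genes and no exclusion gene, beside 16 of 1326 in unchallenged lung replicate 1. In unchallenged lung replicate 5 these were 264 of 6009, and in metastasis replicates 5 and 6 they were 171 of 5166 and 28 of 1036. Median depth per ciliated cell was 4085 to 7414 UMIs in all libraries with such cells except unchallenged lung replicate 6, where it was 1642. Any 2 of the 8 lung libraries shared 0 to 48 cell barcodes.

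Unchallenged lung replicate 6 stood apart from the rest and holds most of the cells. Of its 5229 cells with at least 4 of the 8 genes, 80.4% also had a UMI of an exclusion gene, 3893 of them of Ptprc, against 0% to 33.5% in the other lung libraries. Of the ciliated cells it kept, 29.7% had 7 or 8 of the 8 genes, against 67.9% to 100% elsewhere. Just inside the threshold, 265 of its cells had 4 genes, and just outside it 299 had 3. In unchallenged lung replicate 5 these were 4 and 17 cells, in metastasis replicate 5 they were 22 and 8, and in metastasis replicate 6 they were 4 and 1. Counts of cells fell to a minimum at 3 or 4 genes in replicate 5 of both tissues. They ran through the threshold without a gap in unchallenged lung replicate 6, and several results that rest on that library are also given without it.

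**Figure D1:**
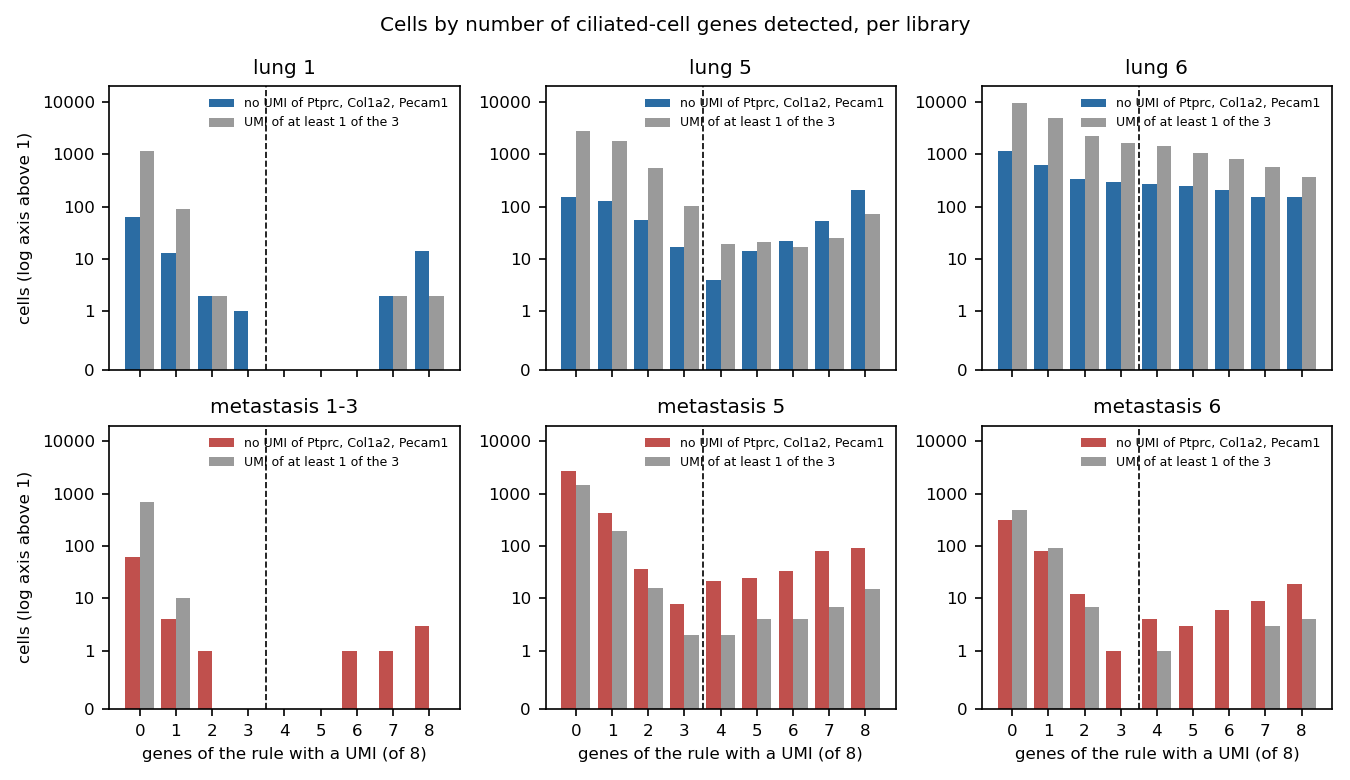
Cells of each library (y axis, cells, log above 1) by how many of the 8 genes had a UMI (x axis), with colored bars for cells without a UMI of Ptprc, Col1a2 and Pecam1 and gray bars for cells with one; the dashed line is the threshold. Replicate 5 of both tissues shows few colored cells at 3 and 4 genes (17 and 4, and 8 and 22), while unchallenged lung replicate 6 goes from 1128 colored cells at 0 genes to 265 at 4, 151 at 7 and 154 at 8.

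Genes that the rule did not use were read as a check of the label. The 7 motile cilia lists hold 116 genes, of which 113 were in the matrix. Thinned to 1000 UMIs per cell, ciliated cells held a mean of 32.5 UMIs of these 113 genes in unchallenged lung replicate 5 (SD 8.12 over 304 cells), 30.9 in metastasis replicate 5 (SD 10.0 over 248 cells) and 20.7 in unchallenged lung replicate 6 (SD 9.16 over 945 cells). In unchallenged lung replicate 5 the mean was 2.14 in cells with none of the 8 genes, 5.13 in cells with 3, 19.3 in cells with 4 and 33.9 in cells with all 8. In metastasis replicate 5 the same steps were 2.98, 11.8, 19.8 and 36.9. In unchallenged lung replicate 6 they were 1.87, 11.4, 14.1 and 29.7, a gradual climb with no step at the threshold. Cells with all 8 genes thus carried a cilia load in all 3 libraries, and in each of them cells with 4 genes carried a smaller one.

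The regulators came first. Levels below are CPM, the UMIs of a gene summed over the ciliated cells of a library and scaled to the same total of UMIs in each, given for unchallenged lung replicates 1, 5 and 6 and then metastasis replicates 1-3, 5 and 6, of which replicate 1 and replicates 1-3 rest on 16 and 5 cells. Those cells held 115050 and 30949 UMIs in all, so that levels in the 5 cells, such as 129 CPM, rest on few UMIs. Foxj1 (chr11:116330704-116335399, GRCm38), the master regulator and a gene of the rule, stood at 913, 701 and 567 and then 743, 518 and 725 CPM. Myb, which acts early in multiciliated differentiation, stood at 296, 415 and 336 and then 226, 204 and 308 CPM, against 0.2 to 15.5 CPM in cells with none of the 8 genes. For levels, those cells include cells with an exclusion gene, 2726 of 2877 in unchallenged lung replicate 5 and 1468 of 4202 in metastasis replicate 5. Rfx3, an X-box factor, stood at 95.6, 144 and 128 and then 96.9, 56.0 and 113 CPM. Trp73, which acts upstream of Foxj1, stood at 95.6, 108 and 74.5 and then 129, 56.9 and 43.4 CPM. These factors were present in both tissues in every library with at least 5 cells.

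Genes that act while centrioles multiply spanned 0 to 96.9 CPM. Mcidas, which starts the multiciliated program, was at 0 in 3 of the 6 libraries and at most 13.02 CPM. Ccno, needed to multiply centrioles, ran from 0 to 25.7 CPM. Deup1, a scaffold of the deuterosome on which centrioles form, ran from 25.1 to 96.9 CPM and was at most 0.9 CPM in cells with none of the 8 genes. Cdc20b was at 0 in 5 libraries and at 0.4 CPM in unchallenged lung replicate 6. The summed cell cycle list of 15 genes stood at 64.6 to 251 CPM, below the 134 to 534 CPM of cells with none of the 8 genes in the same libraries, by ratios of 0.2 to 0.7.

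The structural lists followed by role. Outer dynein arm and docking genes summed to 2162 to 4572 CPM. Dnah9, the heavy chain of the distal outer arm, stood at 209, 360 and 249 and then 226, 230 and 299 CPM, and at 0 to 7.3 CPM in cells with none of the 8 genes. Ccdc114, which docks the outer arm to its doublet, stood at 313, 248 and 147 and then 258, 291 and 503 CPM. Inner dynein arm genes summed to 2783 to 5455 CPM, 21.2 to 194.6 times the level in cells with none of the 8 genes. Dnah12, an inner arm heavy chain, stood at 608, 1136 and 568 and then 1196, 561 and 1445 CPM. Cytoplasmic assembly factors such as Zmynd10 and Lrrc6, which build dynein arms before transport, summed to 1418 to 1904 CPM. For the outer arms the ratio was 3.3 to 7.3, and this list holds Dynll1 and Dynlrb1, light chains that cytoplasmic dynein also uses.

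Radial spoke and central pair genes summed to 3376 to 5511 CPM, 24.8 to 134.6 times their level in cells with none of the 8 genes. Rsph1, a spoke head protein, stood at 713, 598 and 348 and then 582, 896 and 742 CPM. Hydin, of the central pair, stood at 322, 469 and 293 and then 258, 359 and 499 CPM. Nexin link and axoneme ruler genes summed to 1745 to 2994 CPM, 31.1 to 246.6 times that level (246.6 in the library with 5 cells, 49.2 and 75.3 in metastasis replicates 5 and 6), with all 11 measured genes higher in ciliated cells in all 6 libraries. Ccdc39, which with Ccdc40 sets the spacing along the doublet, stood at 643, 686 and 432 and then 194, 510 and 916 CPM. The same count was 17 to 19 of 19 for the radial spoke and central pair genes.

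Tubulin, tektin and microtubule inner protein genes summed to 7796 to 11562 CPM at ratios of 10.1 to 33.3, or to 19.1 without the library with 5 cells. Tubb4b, a tubulin of the axoneme, stood at 1695, 1978 and 1170 and then 1874, 2831 and 1840 CPM, and Tppp3, which bundles microtubules, at 2242, 2479 and 2142 and then 2100, 2340 and 1723 CPM. Tubb2b was the exception in that list, at 0 to 0.9 CPM in unchallenged lung and 0, 15.6 and 8.7 CPM in metastasis, where cells with none of the 8 genes had 72.1 and 47.8 CPM in metastasis replicates 5 and 6. Intraflagellar transport genes summed to 3582 to 5229 CPM at ratios of 8.1 to 15.7. Dync2h1, the motor that returns cargo from the tip, stood at 443, 510 and 365 and then 194, 291 and 577 CPM.

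**Figure D2:**
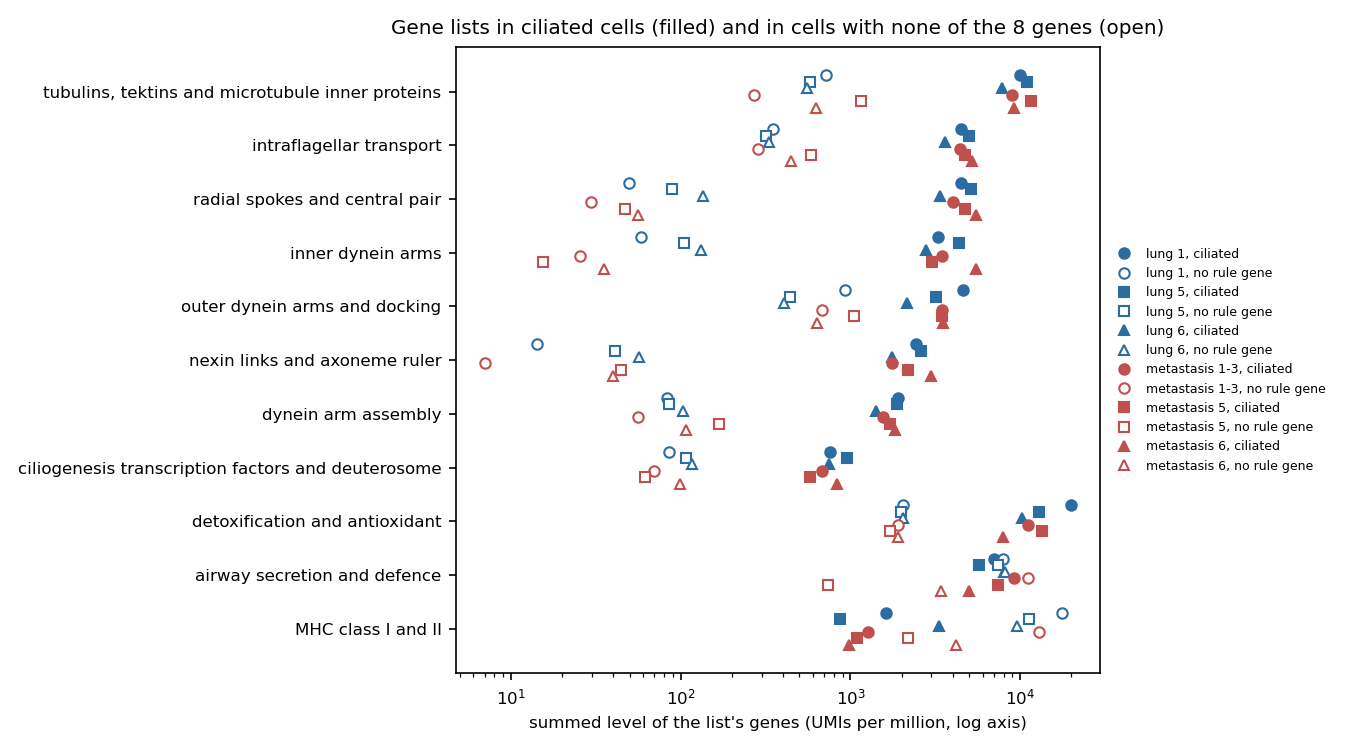
Summed level of each gene list (x axis, CPM, log axis) in the ciliated cells of each library (filled) and in cells with none of the 8 genes (open), blue for unchallenged lung and red for metastasis, 1 symbol per library. All 8 lists of cilia genes and their regulators lie to the right in ciliated cells in all 6 libraries, as does the detoxification list (4.2 to 9.7 times). The MHC list lies to the left (0.1 to 0.5 times), and the airway secretion and defence list on either side (0.77 to 9.95 times).

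Ciliated cells of both tissues also held enzymes of xenobiotic and aldehyde metabolism. The detoxification and antioxidant list of 23 genes summed to 7915 to 19835 CPM, 4.2 to 9.7 times the level in cells with none of the 8 genes, with 18 to 20 of its genes higher. Cyp2s1, an epithelial cytochrome P450, stood at 1391, 1291 and 907 and then 775, 745 and 742 CPM, and at 1.2 to 39.7 CPM in the other cells. Aldh1a1, a retinaldehyde dehydrogenase, stood at 2321, 1604 and 1402 and then 840, 1311 and 1124 CPM. Cbr2, the carbonyl reductase that club cells also use, stood at 9239, 5216 and 4191 and then 5428, 6472 and 2643 CPM. Gpx2, a glutathione peroxidase of epithelia, stood at 252, 212 and 118 and then 129, 233 and 95.5 CPM. Within unchallenged lung the shallow replicate 6 was the lowest library for all 4. The tissues overlapped for Cbr2 and Gpx2, while Cyp2s1 and Aldh1a1 were lower in all 3 metastasis libraries than in all 3 of unchallenged lung. Over the 4 libraries with at least 20 ciliated cells, 23.5% of all genes tested were lower in metastasis without overlap. No gene of the detoxification list was called between tissues.

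The airway secretion and defence list of 20 genes was not higher in every library. It summed to 0.77 to 1.47 times the level in cells with none of the 8 genes, and to 9.95 times in metastasis replicate 5. Of its genes 8 to 12 were higher in ciliated cells, and Cdhr3 and Cd24a are given from it. Cdhr3, a cadherin of the ciliated surface, stood at 522, 517 and 369 and then 291, 347 and 447 CPM and at 0.4 to 15.5 CPM in cells with none of the 8 genes. Cd24a, a surface protein of airway epithelium, ran from 1120 to 1989 CPM. Of the ion transport genes, Scnn1a, a subunit of the epithelial sodium channel, stood at 322, 348 and 272 and then 258, 286 and 282 CPM, while Cftr was at 0 in 5 libraries and at 1.3 CPM in unchallenged lung replicate 6. In cells thinned to 1000 UMIs, Scnn1a had a UMI in 12.5% to 31.7% of ciliated cells and in 0.149% to 1.99% of endothelial cells. MHC genes were low beside cells with none of the 8 genes, which include cells with a UMI of Ptprc, Col1a2 or Pecam1. The list of 16 summed to 873 to 3335 CPM against 2177 to 17622 CPM in cells with none of the 8 genes, and unchallenged lung replicate 6 held the highest value in ciliated cells.

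RNA of other cells was found in ciliated cells and differed between libraries. Dct, an enzyme of melanin synthesis, had a median of 11 UMIs per ciliated cell in metastasis replicate 5 and 5 in replicate 6, and 0 in unchallenged lung. In metastasis replicate 5 the medians of AT-2 (alveolar type 2), club, endothelial and fibroblast cells and leukocytes were 12, 12, 11, 13 and 12. The ciliated value thus lay within 2 UMIs of each other class. Scgb1a1, the main secretory protein of club cells, had medians of 13.5, 4, 14 and 15 UMIs in ciliated cells of unchallenged lung replicates 5 and 6 and metastasis replicates 5 and 6, and 13, 3, 13 and 10 in endothelial cells. Leukocyte marker genes (10 genes) had a median of 9 UMIs per ciliated cell in unchallenged lung replicate 6, of 2 in replicate 5, and of 0 and 1 in metastasis replicates 5 and 6, with 8, 2, 0 and 1 in endothelial cells. Their summed level in ciliated cells was 6221 CPM in unchallenged lung replicate 6 and 123 to 386 CPM in the other 3 of these libraries.

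**Figure D3:**
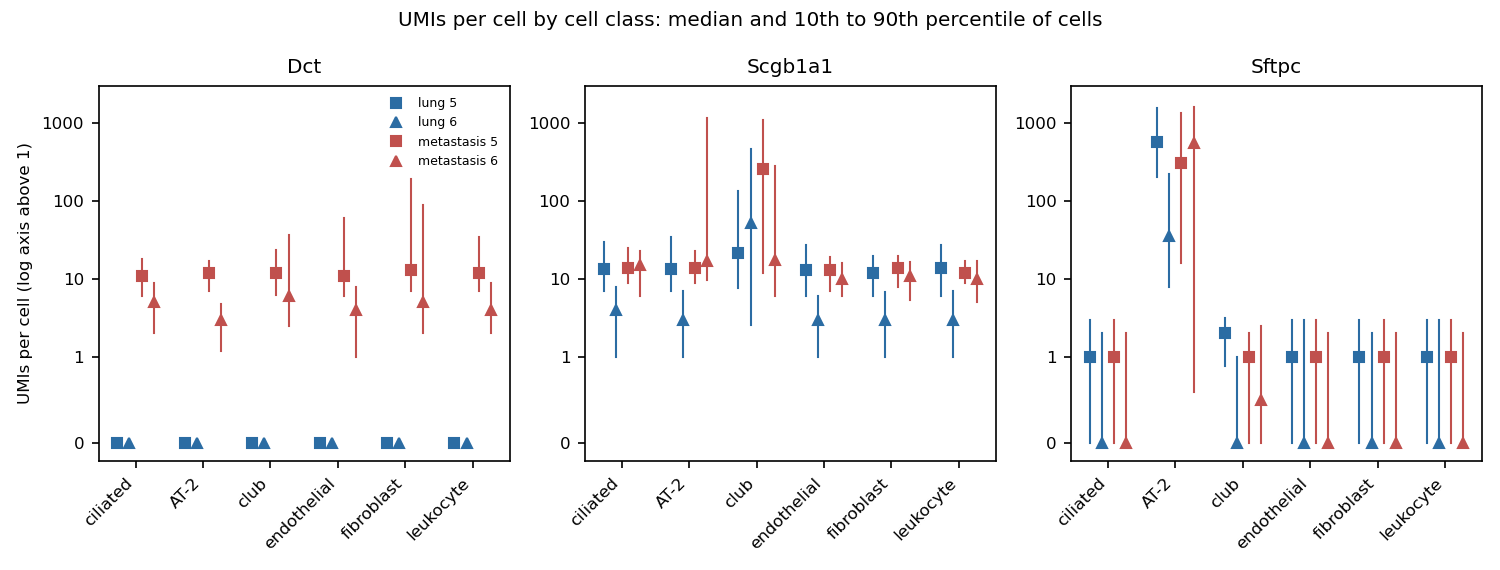
Median UMIs per cell (y axis, log above 1) of Dct, Scgb1a1 and Sftpc in each cell class (x axis), with lines from the 10th to the 90th percentile of cells, for 2 libraries of each tissue. Dct lies at similar medians in all classes of a metastasis library and at 0 in unchallenged lung, and Scgb1a1 in ciliated cells lies close to endothelial cells (13.5 and 13 in unchallenged lung replicate 5).

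A club gene was shared beyond that level. Cyp2f2, a P450 of club cells, had a UMI in 95.4% and 76.6% of ciliated cells in unchallenged lung replicates 5 and 6 and in 87.3% and 75.6% in metastasis replicates 5 and 6, against 30.3%, 17.5%, 6.95% and 14.01% of endothelial cells. Thinned to 1000 UMIs the ciliated shares were 70.1%, 64.4%, 67.3% and 46.3% and the endothelial ones 13.2%, 13.1%, 2.36% and 4.58%. Cyp2f2 was at 937 to 2512 CPM in ciliated cells of all 6 libraries. For Scgb1a1, 20 of 252 ciliated cells of metastasis replicate 5 (7.94%) and 2 of 41 in replicate 6 (4.88%) lay above the 99th percentile of endothelial cells. In unchallenged lung replicates 5 and 6 these were 17 of 304 (5.59%) and 26 of 1026 (2.53%). The 26 held 7.98 UMIs of cilia genes outside the rule per 1000 UMIs, against 23.6 in the other ciliated cells there. They held a mean of 67.4 UMIs of the other club markers, against 3.77. Cilia values were 30.3 against 33.5 in unchallenged lung replicate 5. In metastasis replicates 5 and 6 they were 27.4 against 31.8 and 46.4 against 33.0. The club values in the same order were 13.9 against 10.2, 13.45 against 6.62 and 3.5 against 9.46. In metastasis replicate 5, 5 cells held 70.6% of all ciliated Scgb1a1 UMIs, the highest with 3676. The top 5 cells held 10.1% and 46.6% in unchallenged lung replicates 5 and 6 and 20.8% in metastasis replicate 6. Doublets of a ciliated and a club cell were not called and their part in this was not tested. Club cells themselves, defined by 5 of 8 markers, numbered 10 and 14 in replicate 5 of unchallenged lung and metastasis.

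The genes with the widest spread between ciliated cells included genes of other cells. At 1000 UMIs per cell, the median ratio of variance to mean over 3 libraries was 1.03 across 1779 genes. The 15 genes with the highest ratios were Scgb1a1, Sftpc, Gm42418, Malat1, Sftpa1, Lyz2, Cd74, AY036118, S100a6, Cbr2, Fos, Tmsb4x, Egr1, Reg3g and C1qa. Scgb1a1 had ratios of 3.21, 138 and 143 in unchallenged lung replicates 5 and 6 and metastasis replicate 5, and Sftpc, the AT-2 surfactant gene, 18.4, 33.3 and 44.6. Cbr2, expressed by ciliated cells themselves, had 2.50, 2.38 and 4.12. Fos and Egr1, immediate early genes that dissociation can raise, had 2.16, 1.56 and 2.53, and 2.78, 2.09 and 1.38. No gene of the motile cilia lists was among the 15. The summed cilia load had a ratio of 2.03 in unchallenged lung replicate 5, 4.06 in replicate 6 and 3.25 in metastasis replicate 5.

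The share of ciliated cells was compared between tissues. It was 2.57% ± 2.33 (SD, n = 4) of cells in unchallenged lung and 2.37% ± 2.41 (SD, n = 4) in metastasis, a difference of -0.198 percentage points (exact permutation test over libraries, two-sided, p = 0.8, smallest possible 0.0286). The sign turned without unchallenged lung replicate 5 (0.632 points) or 6 (0.263) and without metastasis replicates 1-3 (0.379) or 4 (0.591). With cells kept that had a UMI of an exclusion gene the difference was -4.62 points (7.33% and 2.72%, exact permutation p = 0.429), and 80.4% of the cells with at least 4 of the 8 genes in unchallenged lung replicate 6 had one. Within the run of replicates 5 and 6 the difference was -0.0874 points (p = 1 by the exact test, smallest possible 0.333). The share was also taken among ciliated, club and AT-2 cells together, a denominator that a CD45 gate and MM cells do not enter. Only libraries with at least 20 such cells were used, which left out unchallenged lung replicate 4 and metastasis replicates 1-3 and 4. Ciliated cells made up 48.5%, 76.0% and 75.8% in unchallenged lung replicates 1, 5 and 6 and 62.2% and 64.1% in metastasis replicates 5 and 6. The means were 66.8% ± 15.8 (SD, n = 3) and 63.1% ± 1.30 (SD, n = 2), a difference of -3.63 points (exact permutation test, two-sided, p = 1, smallest possible 0.1). Without unchallenged lung replicate 6 it was 0.900 points, without replicate 5 it was 0.984, and without replicate 1, which leaves the run of replicates 5 and 6, it was -12.8 points (exact p = 0.333, the smallest possible). In that run the libraries of the tissues did not overlap, at 75.9% ± 0.119 and 63.1% ± 1.30 (SD, n = 2 each), while unchallenged lung replicate 1, of an earlier run and with 16 ciliated cells, lay below all of them. This order rests on the threshold of the rule and on the club cells in the denominator. With 7 or 8 of the genes, unchallenged lung replicate 6 held 305 ciliated cells, fewer than its 190 AT-2 and 137 club cells together. Metastasis replicates 5 and 6 then held 171 and 28, more than their 139 and 7 AT-2 and 14 and 16 club cells together. In unchallenged lung replicate 5 it was 264 beside 86 and 10. The share was not tested at that threshold, which was added after seeing the data. Among ciliated and AT-2 cells alone, a comparison added after seeing the data, the shares of replicates 5 and 6 were 77.9% and 84.4% in unchallenged lung and 64.5% and 85.4% in metastasis, so that the tissues overlapped (-6.23 points, exact permutation test, two-sided, p = 1), and with unchallenged lung replicate 1 the sign turned (4.66 points, exact p = 0.8). The rule found 0 of 6477 cells in the primary tumor TME, which allows a share of up to 0.0463%.

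Gene levels in ciliated cells were then compared between metastasis replicates 5 and 6 and unchallenged lung replicates 5 and 6, the libraries with at least 20 such cells. Of 10637 genes tested with edgeR, 31 were higher in metastasis and 0 lower at an adjusted p below 0.05 (0.291% of genes), and 1108 (10.4%) had an unadjusted p below 0.05. Pigment cell genes such as Dct and Tyrp1 were among the 31. Ptgds (prostaglandin D synthase) had no UMI in unchallenged lung and stood at 403 and 365 CPM in metastasis, at least 529.7-fold higher (floor of 3 counts over the group, adjusted p = 0.00111). Dct (chr14:118012790-118052244) stood at 0.562 and 2.24 CPM and then 3727 and 1206 CPM (log2 fold change 10.68 ± 0.986 SE, adjusted p = 0.00257). Cited1, Tyrp1, Slc45a2, Tubb3 and Car6 were likewise without a UMI in unchallenged lung and at least 210.7-fold, 217.7-fold, 143.8-fold, 112-fold and 83.0-fold higher over both metastasis libraries summed. These limits rest mostly on metastasis replicate 5, where they stood at 180, 190.1, 128, 94.6 and 73.5 CPM, against 52.1, 34.7, 13.02, 34.7 and 8.68 CPM in replicate 6. Syt4 had 1 UMI there and 388 in metastasis, a ratio of 1179 with a counting interval of 210.3 to 46681. All 4 libraries are of the same run, and with 2 in each tissue the p-values measure the spread between these libraries.

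All 31 genes were higher in sorted MM cells of lung metastasis replicate 5 than in ciliated cells of either metastasis library, and 30 of them in both sorted MM libraries. Dct reached 9064 and 17129 CPM in MM cells. Levels in MM cells are sums over all cells of lung metastasis MM replicates 4 and 5. Of these cells 33.9% and 0.398% had a UMI of an exclusion gene. All 31 also had UMIs in AT-2 and endothelial cells of metastasis replicate 5, with a median over the genes of 1.07 times the ciliated level in AT-2 and 2.46 times in endothelial cells. Of the 4222 genes tested that were higher in MM cells than in ciliated cells, the 31 were part, and of the 6415 that were not, 0 were called (509 had an unadjusted p below 0.05, 180 higher and 329 lower). Of the melanoma markers 7 of 8 tested were called, and the 9 of the list summed to 26.1 to 29.8 CPM in ciliated cells of unchallenged lung and to 226 to 5026 CPM in metastasis. How far RNA of MM cells makes up these calls was not tested. Without metastasis replicate 5 there were 0 calls and without metastasis replicate 6 there were 5. Without unchallenged lung replicate 6 there were 145 (132 higher, 13 lower), among them all 31, and without unchallenged lung replicate 5 there were 659 (128 higher, 531 lower). Each of these fits leaves 1 library in a tissue, which is taken to vary like those of the other.

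No motile cilia gene was called, beside 0.291% of all genes, a share at which 0 of 110 says nothing particular about them. Of the 116 genes 110 were tested, 78 with a fold change above 0 and 32 below, and their median log2 fold change was 0.15, beside -0.02 over all genes tested. Without unchallenged lung replicate 6 that median was -0.07, without unchallenged lung replicate 5 it was 0.46, and in cells with at least 7 of the 8 genes it was 0.12, so that its sign followed the library left out. List medians ran from 0.09 for intraflagellar transport to 0.24 for the outer dynein arms. Dnah3, an inner arm heavy chain, stood at 480 and 254 CPM in unchallenged lung replicates 5 and 6 and at 362 and 937 CPM in metastasis (log2 fold change 0.83 ± 0.53 SE, adjusted p = 0.61). Rsph3a and Rsph3b, near-identical spoke genes between which counting may split reads, had log2 fold changes of -1.36 and -1.20 (adjusted p = 0.41 and 0.39). The libraries of the tissues did not overlap for 15 of the 110 genes in the higher and 9 in the lower direction, beside 17.8% and 23.5% of all genes tested.

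**Figure D4:**
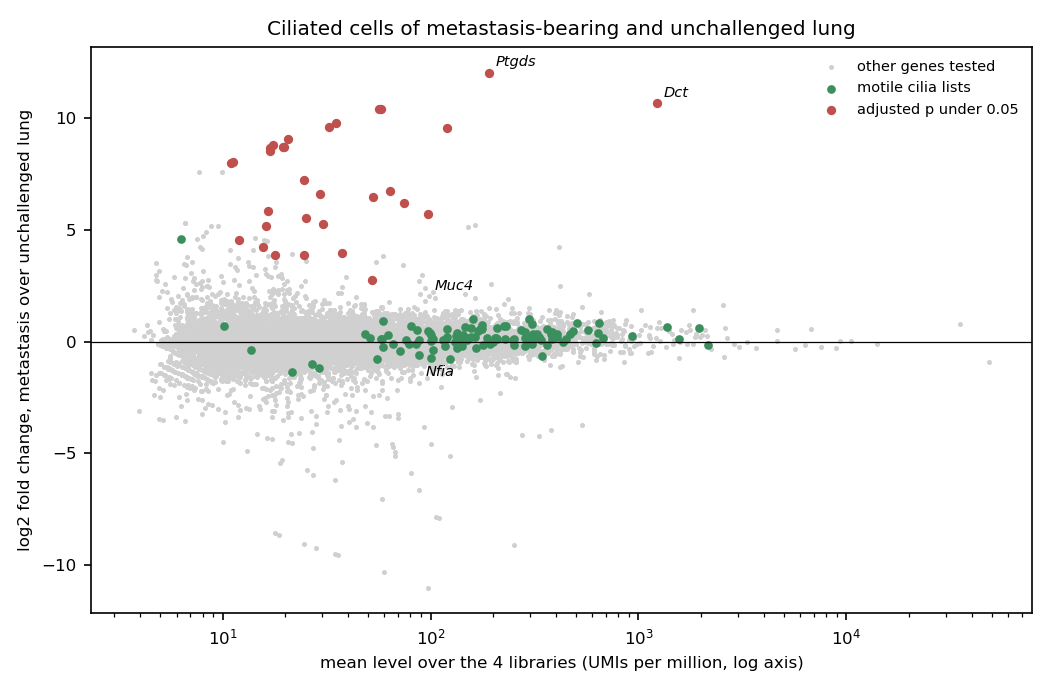
Log2 fold change of metastasis over unchallenged lung in ciliated cells (y axis) against the mean level over the 4 libraries (x axis, CPM, log axis), 1 point per gene tested, with called genes in red and motile cilia genes in green. The 31 called genes lie between 2.74 (S100b) and 12.03 (Ptgds), and all motile cilia genes but Tubb2b (4.59) lie between -1.36 and 1.02.

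Among regulators, Trp73 and Rfx3 had the smallest p. Trp73 stood at 108 and 74.5 CPM in unchallenged lung replicates 5 and 6 and at 56.9 and 43.4 CPM in metastasis (log2 fold change -0.76 ± 0.38 SE, adjusted p = 0.52). These libraries did not overlap, as for 23.5% of all genes in that direction. The 5 cells of metastasis replicates 1-3 held 129 CPM, above all 3 of unchallenged lung, a level that rests on few UMIs. Rfx3 stood at 144 and 128 CPM and then 56.0 and 113 CPM (-0.75 ± 0.40 SE, adjusted p = 0.54). The list of 15 regulators had 10 genes tested, 5 above and 5 below 0, and a median of 0.03. That median was -0.16 without unchallenged lung replicate 6 and 0.24 without replicate 5. None was called.

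Outside genes that MM cells hold at a higher level, Muc4 came nearest to the threshold on the higher side. Muc4 (chr16:32735886-32782391), a membrane-bound mucin of the airway surface, stood at 29.8 and 48.9 CPM in unchallenged lung replicates 5 and 6 and at 152 and 161 CPM in metastasis (log2 fold change 2.02 ± 0.38 SE, adjusted p = 0.082). A UMI of Muc4 was found in 13.8% and 7.70% of ciliated cells of unchallenged lung replicates 5 and 6 and in 33.7% and 39.0% in metastasis, against 0.114% to 0.637% of endothelial cells in these libraries. Thinned to 1000 UMIs the shares were 3.29% and 4.34%, and then 10.5% and 14.6%. The small libraries did not follow this order, with 243 CPM in unchallenged lung replicate 1 (16 cells) and 129 CPM in metastasis replicates 1-3 (5 cells). With libraries of at least 10 cells, where 51 of 10005 genes were called (0.51%), the log2 fold change of Muc4 was 1.07 (adjusted p = 0.61), with DESeq2 it was 2.06 (adjusted p = 0.0057), and without unchallenged lung replicate 6, which leaves 1 library of that tissue and no spread within it, it was 2.43 (adjusted p = 0.032).

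No gene passed the test on the lower side in the edgeR fit reported above. DESeq2 called 10 lower and 55 higher, and edgeR on cells with at least 3 of the 8 genes called 4 lower and 40 higher. The genes named by p are given as values. Notch2, a receptor by which airway cells choose secretory over ciliated fate, stood at 45.0 and 74.0 CPM and then 8.26 and 13.02 CPM (log2 fold change -2.59 ± 0.49 SE, adjusted p = 0.093) and -2.19 without unchallenged lung replicate 6 (adjusted p = 0.038), a fit with 1 unchallenged lung library and no spread of its own in that tissue. Nfia, a transcription factor, stood at 124 and 148 CPM and then 31.2 and 47.7 CPM (-1.84 ± 0.38 SE, adjusted p = 0.12), and at 165 CPM in unchallenged lung replicate 1 but 129 CPM in metastasis replicates 1-3. Fbxo33, Rpa3, Fn3krp and Fam151b had log2 fold changes of -2.71, -2.39, -2.50 and -2.04, with adjusted p of 0.0995 to 0.141. All 10 genes with the lowest p on this side were without overlap over the 4 libraries, beside 23.5% of all genes, which follows from their choice by p, and for Notch2 and Nfia the 5 cells of metastasis replicates 1-3 lay within or above the lung values. Laptm5, Ptgs2, Il1b and Itgal, which leukocytes express, completed the 10 lowest p, and all 4 were highest in unchallenged lung replicate 6, at 391, 60.6, 214 and 186 CPM, where leukocyte markers were highest too.

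Other gene groups gave 1 call, Adm. The glycolysis and hypoxia list had 14 genes tested, 10 above and 4 below 0, and a median log2 fold change of 1.01, which was 0.85 without unchallenged lung replicate 6. Adm (adrenomedullin) was called (3.86 ± 0.577 SE, adjusted p = 0.028) and stood at 125 and 187 CPM in sorted MM cells against 45.0 and 21.7 CPM in ciliated cells of metastasis. Pkm, a glycolytic enzyme, stood at 88.8 and 131 CPM and then 409 and 273 CPM (1.69 ± 0.41 SE, adjusted p = 0.19), and Eno1 at 68.0 and 87.5 and then 226 and 161 CPM (1.38 ± 0.36 SE, adjusted p = 0.23). Sorted MM cells held Pkm at 1258 and 1437 CPM and Eno1 at 1008 and 719 CPM, and endothelial cells of replicates 5 and 6 held Pkm at 115 and 160 CPM in unchallenged lung and 955 and 466 CPM in metastasis. How far RNA of MM cells has a part in these values was not tested. The cell cycle list had 8 genes tested, 7 above and 1 below 0, 5 of the 7 without overlap, beside 17.8% of all genes in that direction, and a median of 1.69. It summed to 251 and 152 CPM in ciliated cells of metastasis replicates 5 and 6 and to 534 and 254 CPM in cells with none of the 8 genes there, and melanoma markers were higher in the same libraries, whose part in these values was not tested. Without unchallenged lung replicate 6 the median was 4.62, a fitted value that is no bound, since Mki67, Cdc20 and Aurka were at 0 in the unchallenged lung library left. Pcna, the sliding clamp of DNA replication, was the gene below 0, at 51.1 and 87.9 and then 34.0 and 30.4 CPM (-1.03 ± 0.41 SE, adjusted p = 0.42). The detoxification list had 21 genes tested, 8 above and 13 below 0, and a median of -0.12, which was -0.35 without unchallenged lung replicate 6 and 0.13 without replicate 5. Sod1, a superoxide dismutase, stood at 461, 534 and 641 CPM in the 3 unchallenged lung libraries and at 258, 287 and 247 CPM in the 3 of metastasis (-1.09 ± 0.39 SE, adjusted p = 0.38). Gclc, which starts glutathione synthesis, stood at 313, 305 and 280 and then 64.6, 126 and 182 CPM (-0.92 ± 0.37 SE, adjusted p = 0.44). Over the 4 libraries fitted, 6 of the 21 genes were lower without overlap, beside 23.5% of all genes.

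Medians of the immune-related lists moved with the unchallenged lung library left out. All 14 MHC genes tested had a fold change below 0 with a median of -1.52, which was 0.06 without unchallenged lung replicate 6 and -2.35 without replicate 5. The interferon list had 16 genes tested, 10 above and 6 below 0, and a median of 0.17, which was 0.43 without unchallenged lung replicate 6 and -0.19 without replicate 5. Ifi27 stood at 64.6 and 72.7 CPM and then 170 and 152 CPM (1.28 ± 0.34 SE, adjusted p = 0.23). The acute phase list had 11 tested, 5 above and 6 below 0, with a median of -0.10 that was 0.31 without unchallenged lung replicate 6 and -0.61 without replicate 5. Saa3, an acute phase protein, stood at 0 and 6.28 CPM and then 20.2 and 73.8 CPM (3.59 ± 1.00 SE, adjusted p = 0.26), and had a UMI in 8.33% and 31.7% of ciliated cells of metastasis replicates 5 and 6 beside 9.68% and 24.8% of endothelial cells. The immediate early list had 7 of 20 genes above and 13 below 0, with a median of -0.34 that was 0.19 without unchallenged lung replicate 6 and -0.53 without replicate 5. The secretion and defence list had 8 of 17 above and 9 below 0, with a median of -0.06 that was 1.05 and -0.35 in the same order, and the 9 tested channel genes had a median of 0.17 (6 above, 3 below 0). No gene of these lists was called.

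A few further genes, chosen after their values were seen, are given as values. Retnla, a secreted protein of allergic airways, stood at 0, 1.69 and 24.2 CPM in unchallenged lung and at 3102, 184 and 86.8 CPM in metastasis replicates 1-3, 5 and 6. In metastasis replicates 5 and 6 it had a UMI in 24.2% and 39.0% of ciliated cells and in 20.3% and 42.7% of endothelial cells, and stood at 4203 and 6349 CPM in AT-2 cells. Cxcl17, a mucosal chemokine, stood at 626, 237 and 183 CPM and then 905, 696 and 369 CPM (log2 fold change 1.41 ± 0.447 SE, adjusted p = 0.32), overlapping in the small libraries, and at 0 to 18.6 CPM in endothelial cells. Reg3g, an antibacterial lectin, stood at 0, 3.93 and 56.5 CPM and then 452, 151 and 165 CPM (2.39 ± 0.810 SE, adjusted p = 0.36). In metastasis replicate 5, 5 cells held 93.3% of the ciliated Reg3g UMIs. A UMI of Reg3g was found in 5.56% and 34.1% of ciliated cells of metastasis replicates 5 and 6 and in 1.25% and 35.7% of endothelial cells. In unchallenged lung replicates 5 and 6 it was found in 1.64% and 3.31% of ciliated cells and in 0.992% and 3.43% of endothelial cells.

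**Figure D5:**
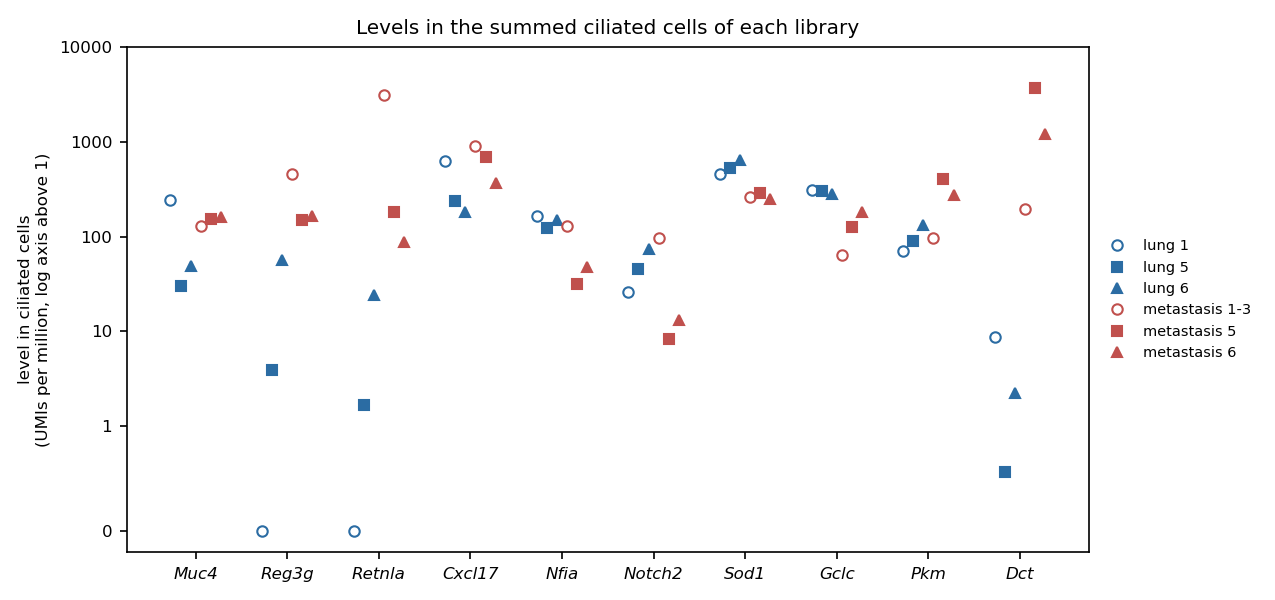
Level of 10 genes in the summed ciliated cells of each library (y axis, CPM, log above 1), blue for unchallenged lung and red for metastasis, open circles for the libraries with 16 and 5 cells. Dct separates the tissues, Sod1 and Gclc are lower in all 3 metastasis libraries, and Muc4 and Nfia overlap once the open circles are counted.

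Whether a tissue difference was particular to ciliated cells was tested against AT-2 cells of the same libraries, with unchallenged lung replicates 5 and 6 and metastasis replicate 5, the only ones with 20 cells of both classes. The metastasis side of this test is thus 1 library, so that it has no spread between metastasis libraries. The difference between classes was called for 8 of 11097 genes (0.0721%), 3 more positive and 5 more negative in ciliated cells. The value given here is the log2 fold change in ciliated cells minus that in AT-2 cells. Reg3g had 7.15 ± 1.02 SE (adjusted p = 0.000941), from 3.93 and 56.5 to 151 CPM in ciliated and from 0 and 146 to 1.74 CPM in AT-2 cells, with the ciliated UMIs in few cells as given above. Slpi, a protease inhibitor, had -6.08 ± 0.895 SE (adjusted p = 0.000941), from 6.18 and 98.2 to 0.918 CPM in ciliated and from 21.9 and 257 to 168 CPM in AT-2 cells. The 1.74 CPM of Reg3g in AT-2 cells and the 0.918 CPM of Slpi in ciliated cells of metastasis replicate 5 lie below 3 counts. Their log2 values are thus fitted values and no bounds. Dct stood at 3727 CPM in ciliated and 4213 CPM in AT-2 cells of metastasis replicate 5, and at 0 in AT-2 cells of both unchallenged lung libraries. Under DESeq2 0 genes were called (33 with an unadjusted p below 0.05) and with libraries of at least 10 cells 2 were, Reg3g and Slpi. A fit over libraries with at least 5 cells, with 3 libraries of each tissue, called 6 of 6326 genes, among them Reg3g (5.93), Sparc (3.43), Adamts1 (3.73) and Enpp2 (-4.79) but not Slpi (-3.31, adjusted p = 0.069).

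Sparc and Adamts1, secreted matrix genes, had 3.51 ± 0.701 SE and 3.64 ± 0.676 SE (adjusted p = 0.038 and 0.018). Sparc stood at 1.69 and 15.7 CPM in ciliated cells of unchallenged lung and 466 CPM in metastasis, with 1584 and 1963 CPM in sorted MM cells, and Adamts1 at 1.12 and 6.28 and then 35.8 CPM, with 223 and 244 CPM in MM cells. Enpp2 (autotaxin) was present in ciliated cells of both tissues. It stood at 77.5 and 72.2 and then 60.6 CPM in ciliated and at 0 and 5.71 and then 55.6 CPM in AT-2 cells (-4.97 ± 0.897 SE, adjusted p = 0.015). MM cells held Enpp2 at 155 and 150.1 CPM. Gm42031 (-5.91 ± 1.06 SE) and Il4i1 (-10.75 ± 2.17 SE) turned on 0 to 5.38 CPM of Il4i1 and 0.918 to 34.1 CPM of Gm42031 in ciliated cells. How far RNA of MM cells in the droplets shaped these differences was not tested.

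Against club cells, no library pair held 20 cells of both classes in both tissues, and a fit over libraries with at least 10 cells called 0 of 5998 genes in edgeR (147 with an unadjusted p below 0.05) and 0 in DESeq2 (72 with an unadjusted p below 0.05), a background of 0%. Club cells of unchallenged lung replicate 5 and metastasis replicate 6 had Scgb1a1 medians of 21.5 and 17.5 UMIs, near the 13 and 10 of endothelial cells, so that their class is weakly marked there. Sftpc, 1 of the markers that chose the AT-2 cells, had medians of 576.5, 35.5 and 312 UMIs in them in the 3 libraries of the AT-2 fit. Its medians in ciliated cells were 0 to 1. In unchallenged lung replicate 6 the AT-2 median of 35.5 lay below 92.4 UMIs, the 99th percentile of endothelial cells there.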

How the data were processed

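The counts deposited by the authors hold UMIs per gene and cell, made with Cell Ranger 6.1.1 on GRCm38 and filtered in Seurat 3.2.2 by quantiles of mitochondrial and ribosomal share and detected genes. A deposited log-normalized matrix was not used. Of 24 library names, 5 held the same cells as another and were left out, 1 of them metastasis TME replicate 6 deposited again as lung metastasis MM replicate 6, and the names of replicates 1-3 were joined by tissue, which gives 16 libraries. Treatment of doublets by the authors was not given in the sources used here and no doublet caller was run. Members, gene lists and tests were chosen with earlier results of these data known.

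Counts were summed over the cells of a library and class. Libraries with at least 20 cells were fitted with edgeR 4.0.16 (R 4.3.3, filterByExpr by tissue, TMM, quasi-likelihood F test) and genes called at a Benjamini-Hochberg adjusted p below 0.05 over all genes tested. The 8 genes of the rule and the 3 exclusion genes were left out of tests and kept in totals. Tissue by class interactions had the library as a block; the club fit could not be made at 20 cells and used 10. Club or AT-2 cells had a UMI of at least 5 of 8 markers. Shares were compared by exact permutation of library labels (scipy 1.17.1). Cells were thinned without replacement to 1000 UMIs, and cells with fewer left out (81 ciliated cells of unchallenged lung replicate 6). Intervals (95%) and floors (3 counts) cover counting error only. Alternatives were DESeq2 1.42.0, no filter, other cell minimums, marker thresholds and libraries left out. Named genes were the genes with the smallest p of each list and, per direction, the 10 called genes with the largest fold change among those whose tissues did not overlap and whose mean CPM reached 20, filled up by smallest p, and the 15 genes with the largest spread over libraries with 50 cells. The fits were tested on simulated data with 2 libraries in each tissue, which does not cover the AT-2 fit with its 1 metastasis library. Of 195 symbols 192 matched GENCODE vM21, from which gene positions come. Runs were taken from the deposited cell names. The number in the name of unchallenged lung replicate 1 differs from its label, and it was matched as the only name left in its group. Of the genes with an interaction, 1 is not reported here.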

Additional observations from a re-analysis of the deposited data

Results flagged for a closer look

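The interaction test in edgeR passed its threshold for 8 genes, in which the tissue difference in ciliated cells was set against that in AT-2 cells. On the log2 scale, ciliated minus AT-2, and for 7 of them, it was 7.15 for Reg3g, 3.64 for Adamts1 and 3.51 for Sparc, and -6.08 for Slpi, -5.91 for Gm42031, -4.97 for Enpp2 and -10.75 for Il4i1. Of these genes, Reg3g in AT-2 cells and Slpi in ciliated cells lay below 3 counts in metastasis replicate 5. The metastasis side of this test is 1 library, without a spread of its own, and DESeq2 called 0 of them.

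Cells meeting the ciliated rule also appeared in libraries sorted as tdTomato- MM cells, whose own ciliated cells entered no comparison. They were 2 of 638 cells (0.313%, exact 95% interval 0.0380% to 1.13%) in lung metastasis MM replicate 4, beside 0 of 6477 cells of the primary tumor TME, which allows up to 0.0463%. The difference was not tested. In lung metastasis MM replicate 4, 33.9% of all cells had a UMI of Ptprc, Col1a2 or Pecam1 and 3 cells met the AT-2 rule. In lung metastasis MM replicate 5 these were 0.398% and 1. In lung metastasis MM replicate 5 they were 4 of 11310 cells, in primary tumor MM replicate 5 they were 3 of 6481, and in primary tumor MM replicate 4 they were 0 of 30419.

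Dixon's test for a library far from the rest of its group was applied 5 times, each over the 4 libraries of a tissue, and found 0. With 4 libraries it can find only a very far one, so that the 0 does not show that no library stood apart.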

How the results depend on the processing

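The count of genes called between tissues was 31 and moved to 614 without a filter on low counts (194 higher, 420 lower), 65 with DESeq2 (55 higher, 10 lower), 51 and 20 with libraries of at least 10 and 5 cells and, among alternatives chosen after seeing the data, 56 with at least 7 of the 8 genes and 54 with at least 5 cells and without unchallenged lung replicate 6. Of the 31 genes, 31, 29, 30, 7, 24 and 11 were called there, 7 and 11 being all of them that were tested in the fits from 5 cells. Leaving out 1 library gave 0 to 659, as given above. The fit with the replicate number as a block gave 117 (69 higher, 48 lower), among them all 31. The deviations of the 2 replicates 5 from their group means had a correlation of 0.038 over 7215 genes. This single value does not show what the samples share beyond their run, and the cell names give different mice for unchallenged lung and metastasis. The interaction with AT-2 cells gave 2 genes with at least 10 cells, 6 with at least 5, 16 without a filter and 0 with DESeq2 (33 with an unadjusted p below 0.05), and could not be fitted with any library left out. The share of library cells differed by -1.04 to 0.632 points with 1 library left out and by -0.0746 within replicate numbers (replicate block), and the share of epithelial cells by -12.8 to 0.984 points, and by 2.90 points in thinned cells and 4.66 with club cells left out, chosen after seeing the data. With cells kept that had an exclusion gene these differences were -4.62 and -10.4 points. Of the named genes' fold changes under other settings, 673 kept their direction and side of the threshold, 66 passed it, 12 no longer did, and 1 reversed, Lyz2, at 0.65 with at least 5 cells and without unchallenged lung replicate 6. The causes were not tested. Depth per cell was lowest in unchallenged lung replicate 6 (median 1642 UMIs in ciliated cells), and summed levels rest on few cells in the libraries with 16 and 5.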

Other observations

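Of the 7 markers of AT-2 cells, 6 had a fold change below 0 in ciliated cells, with a median log2 value of -1.46 that was 0.27 without unchallenged lung replicate 6. The 6 endothelial markers tested were below 0 with a median of -1.82, which was -0.52 without unchallenged lung replicate 6 and -2.45 without replicate 5. Of the 4 fibroblast markers tested 3 were above 0, with a median of 1.95 that was 3.73 without unchallenged lung replicate 6 and 1.14 without replicate 5. None of these was called. Mitochondrial genes took a median of 3.94% of the UMIs of ciliated cells in metastasis replicate 5. In the other unchallenged lung and lung metastasis TME libraries with at least 2 such cells it was 6.74% to 10.0%. The other cells of these libraries had 2.20% to 5.80%. Whether this share has a part in any difference between tissues was not tested.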
